A study of Drosophila melanogaster with 4 samples.

Results

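The report covers 8 transposon families, named ZAM, GTWIN, IDEFIX, QUASIMODO, STALKER4, Gypsy, Gypsy5 and HMSBEAGLE, which were picked by these exact names from the 133 transposon rows of a table that also holds 13931 gene rows. All are LTR retrotransposons of the gypsy group and are counted here as families active in the somatic cells of the Drosophila melanogaster ovary. That activity is a label of the set and was not tested for any member. HMSBEAGLE in particular had far fewer reads than the rest of the set. A row sums the reads of a family over all its copies, so no single genome position belongs to it. The table counts RNAs bound to Piwi and measures neither the transcripts nor the movement of a family.

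The gypsy group holds retrotransposons with long terminal repeats, several of which carry an envelope gene and are regarded as endogenous retroviruses of insects. In the follicle cells that surround the germline, such families can form particles that pass into the oocyte. Their restraint in this tissue rests on Piwi, a nuclear Argonaute protein guided by Piwi-interacting RNAs (piRNAs), many of which come from the flamenco locus, which is dense in gypsy-group fragments. Yb, a Tudor-domain protein with helicase-like domains, collects the precursors of these piRNAs in cytoplasmic Yb bodies.

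Ovarian somatic cells (OSC), a cultured line from the ovarian soma, were kept at 26 degrees and transfected with an siRNA against Yb (siYb) and a Yb plasmid. All 4 libraries share siYb and a purification with a Flag antibody that brought down Flag-Piwi, and RNAs of 23 to 30 nucleotides were sequenced. The groups were Yb WT (wild-type Yb, 2 libraries) and Yb delta-Hel-C (Yb without the region named Hel-C, 2 libraries, written Yb ΔHel-C below). The comparison concerns the RNAs that Piwi carries when Yb lacks Hel-C. The share of cells that took up a plasmid is not given in the labels, and in such a bulk sample fewer responding cells and a smaller change per cell cannot be told apart.

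The table gives 1 value per group, in RPM (reads per 1000000 reads). No difference between the groups therefore has a replicate check, and every interval below is an exact 95% interval that covers counting error only. Steps in the values correspond to 2955141 reads with Yb WT and 2803305 with Yb ΔHel-C, so that 1 read is worth 0.338 and 0.357 RPM. The somatic marker tj had 6972 and 4481 RPM on Piwi, zfh1 had 572 and 764 RPM, ptc had 714 and 2114 RPM, and Fas3 had 34.2 and 72.8 RPM. The germline markers vas (0 and 2 reads), nos (2 and 4), osk (1 and 1) and bam (6 and 4) were near 0 in both groups. All these marker values are reads on Piwi and not mRNA levels, so they do not measure the expression of the markers.

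The 8 families together supplied most of the transposon reads on Piwi, and their level was lower without Hel-C. Their summed level was 31839 RPM with Yb WT and 11601 RPM with Yb ΔHel-C, a 2.74-fold lower level (2.71 to 2.78). It became 0.993-fold when the columns were scaled to their transposon reads alone. The 8 families are most of that base, so 0.993 only compares their shares of it (63.8% and 64.2%). It is not a separate check of the loss. Of the 14064 rows of the table, these 8 held 3.18% of all reads with Yb WT and 1.16% with Yb ΔHel-C. They made up 63.5% of the RPM that the transposon rows lost between the columns.

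All 8 families had a lower RPM with Yb ΔHel-C. A row was called lower when its log2 fold on RPM + 0.5 was -1 or less, and 6 of the 8 met this. Among the 120 transposon rows that averaged 1 RPM or more, 63.3% met it too (2.5% were 2-fold higher), so the count for the 8 families is near that of transposons in general. Among the 7577 gene rows with this mean, 4.98% met it. An exact binomial test on read numbers, adjusted after Benjamini and Hochberg over all rows, compares the columns and not the conditions; it called 7 of the 8 families lower and 80.8% of the 120 transposon rows. The median log2 fold was -1.40 over the 8 families, -1.22 over the 120 transposon rows and 0.89 over the gene rows.

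**Figure D1:**
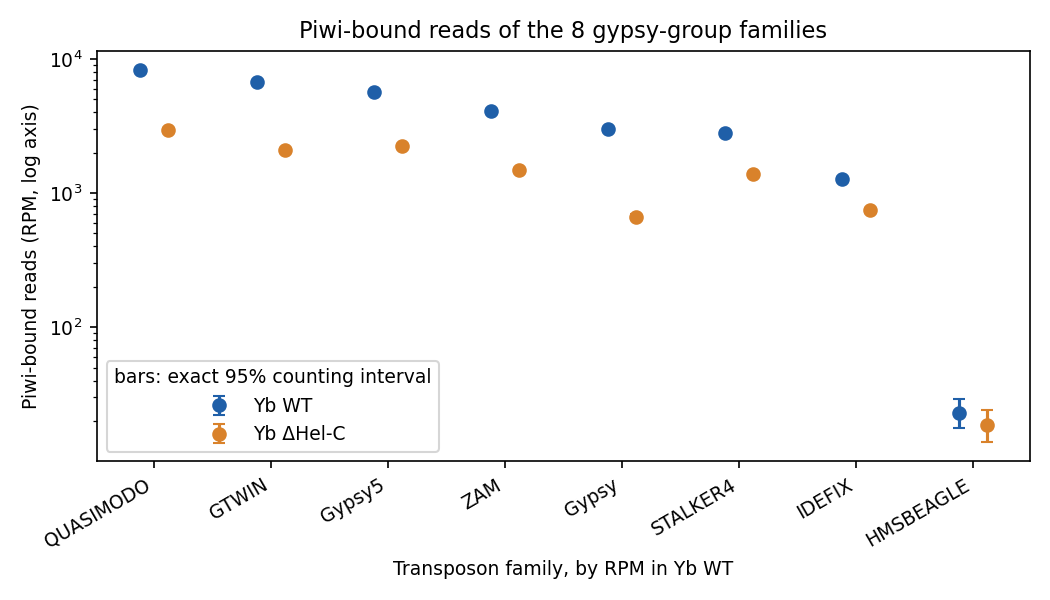
Piwi-bound reads of each family in RPM (log axis) for Yb WT and Yb ΔHel-C, 1 deposited value per group, with exact 95% counting intervals that are hidden by most points. On the authors' totals each family is lower with Yb ΔHel-C, Gypsy drops below STALKER4 and IDEFIX, and the intervals of the 2 groups overlap only for HMSBEAGLE; scaled to transposon reads alone, 4 families turn higher.

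Gypsy, ZAM and IDEFIX are the families through which flamenco became known as a repressor of retrotransposons, and they differed widely from each other. Gypsy, the infectious endogenous retrovirus that names the group, had 3014 RPM with Yb WT and 667 RPM with Yb ΔHel-C. This was a 4.52-fold lower level (4.30 to 4.75), the greatest loss of the 8. ZAM, an element expressed in follicle cells, had 4119 RPM with Yb WT and 1490 RPM with Yb ΔHel-C, 2.76-fold lower (2.67 to 2.86). IDEFIX, also expressed in somatic cells of the ovary, had 1275 RPM with Yb WT and 744 RPM with Yb ΔHel-C. Its level was 1.71-fold lower (1.62 to 1.81) and did not reach 2-fold. The loss of IDEFIX was 0.379 times that of Gypsy (0.352 to 0.409), and the loss of ZAM was 1.61 times that of IDEFIX (1.51 to 1.72).

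GTWIN, Gypsy5 and QUASIMODO had the most reads. QUASIMODO had 8239 RPM with Yb WT and 2966 RPM with Yb ΔHel-C, and it ranked first among transposons in both. GTWIN, whose name marks it as a twin of Gypsy, had 6664 RPM with Yb WT and 2078 RPM with Yb ΔHel-C, 3.21-fold lower (3.11 to 3.30). Gypsy5 had 5691 RPM with Yb WT and 2260 RPM with Yb ΔHel-C, 2.52-fold lower (2.45 to 2.59). GTWIN and Gypsy5 therefore changed places, with 1.17 times as many reads on GTWIN with Yb WT (1.15 to 1.20) and 1.09 times as many on Gypsy5 with Yb ΔHel-C (1.05 to 1.13).

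STALKER4 and HMSBEAGLE, 2 further LTR families of the group, lost least along with IDEFIX. STALKER4 had 2814 RPM with Yb WT and 1378 RPM with Yb ΔHel-C, 2.04-fold lower (1.97 to 2.12), just past the threshold and with an interval that reaches under 2-fold. HMSBEAGLE had 23.0 RPM (68 reads) with Yb WT and 18.5 RPM (52 reads) with Yb ΔHel-C. Its ratio of 1.24-fold lower has an interval from 0.852 to 1.82, so on the authors' totals a difference was not detectable at this depth. Its level was also far from that of the other 7, with 55.4 times as many reads on IDEFIX with Yb WT (43.6 to 71.5).

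The rank by reads, which is not divided by length because the table gives none, put 7 of the 8 families among the 10 highest of the 133 transposon rows in each column. In Yb WT the order was QUASIMODO, GTWIN, Gypsy5, ZAM, Gypsy and STALKER4 at ranks 1 to 6, with IDEFIX at 9 and HMSBEAGLE at 74. In Yb ΔHel-C, QUASIMODO, Gypsy5, GTWIN, ZAM, STALKER4, IDEFIX and Gypsy held ranks 1 to 7, and HMSBEAGLE was at 53. Neighbours in each of these orders differed beyond counting error, the closest being Gypsy over STALKER4 with Yb WT (1.07 times, 1.04 to 1.10). Of the 28 pairs of families, 25 kept their order. The 3 pairs that did not were GTWIN with Gypsy5, Gypsy with STALKER4 and Gypsy with IDEFIX.

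Among all 14064 rows, QUASIMODO went from rank 3 to rank 22. GTWIN went from rank 6 to 39, Gypsy5 from 7 to 35, ZAM from 14 to 65 and STALKER4 from 30 to 78. Gypsy moved furthest among the 7 abundant families, from rank 27 to rank 220, and IDEFIX went from 91 to 187. In Yb WT these families stood among the most abundant sources of Piwi-bound reads of any kind, genes included, and most of them left the top 30 with Yb ΔHel-C.

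By log2 fold the 8 families were spread across the transposons and did not cluster at the low end. Counted from the lowest fold among the same 120 transposon rows, Gypsy stood at rank 15, GTWIN at 33, QUASIMODO at 43, ZAM at 45 and Gypsy5 at 54. STALKER4 stood at 76, IDEFIX at 94 and HMSBEAGLE at 110. With all 133 rows ranked, the ranks ran from 15 for Gypsy to 120 for HMSBEAGLE. These ranks take no account of counting error, and several rows ahead of Gypsy had few reads. CIRCE, at rank 3, had 15 and 1 reads. Its interval of 2.19-fold to 599-fold lower holds the 4.52-fold of Gypsy.

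Within the transposon reads the share of the 8 families hardly moved. It was 63.8% with Yb WT (63.5% to 64.0%) and 64.2% with Yb ΔHel-C (63.8% to 64.6%). The loss of the 8 families together was 0.981 times that of the other 125 transposon rows (0.961 to 1.002), a difference within counting error. Those 125 rows include other gypsy-group families, which held 35339 of their 53444 reads with Yb WT. The 83 rows outside the list of such families were 2.30-fold lower as a sum (2.23 to 2.36). The loss of the 8 families was 1.20 times that loss (1.16 to 1.23). Within the nearly even share of the 8, the families diverged. Gypsy went from 6.04% to 3.69% of transposon reads and GTWIN from 13.3% to 11.5%. Shares of QUASIMODO (16.5% and 16.4%) and ZAM (8.251% and 8.247%) stayed close. Gypsy5 went from 11.4% to 12.5%, STALKER4 from 5.64% to 7.62%, IDEFIX from 2.55% to 4.12% and HMSBEAGLE from 0.0461% to 0.103%.

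**Figure D2:**
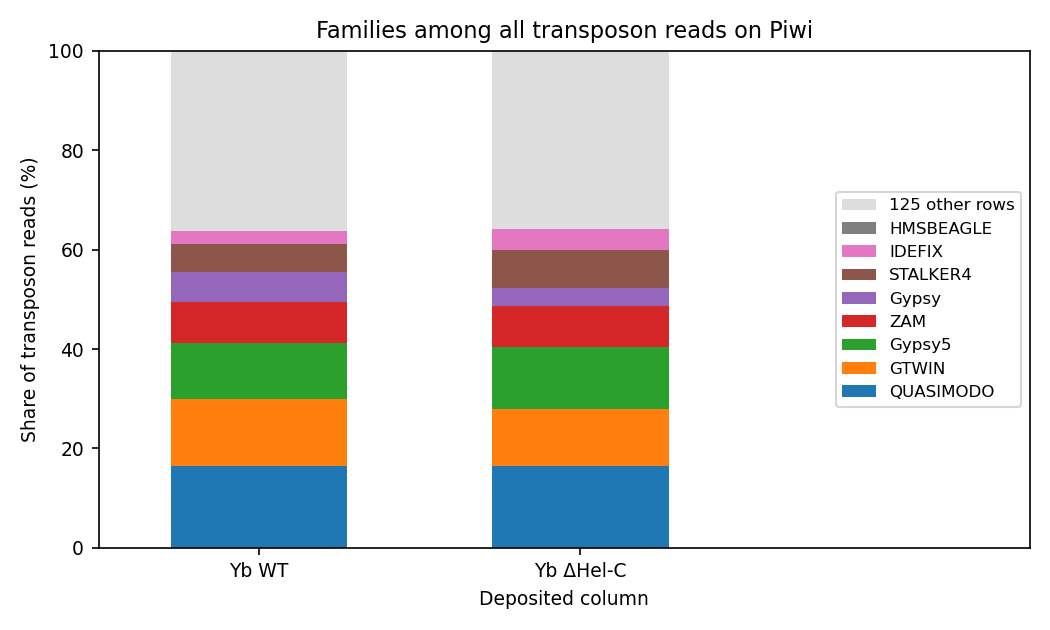
Share of all transposon reads (%) held by each of the 8 families and by the 125 other transposon rows in the Yb WT and Yb ΔHel-C columns. The families sum to 63.8% and 64.2%, while the Gypsy band narrows and the STALKER4 and IDEFIX bands widen.

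A measure that does not depend on the scaling of the columns is the loss of a family divided by the loss of all other transposon reads. It was 1.68 for Gypsy (1.59 to 1.76) and 1.19 for GTWIN (1.15 to 1.22), the 2 families with an interval above 1. It was 1.006 for QUASIMODO (0.979 to 1.03) and 1.0006 for ZAM (0.964 to 1.04). The interval lay below 1 for 4 families, with 0.900 for Gypsy5 (0.873 to 0.928), 0.724 for STALKER4 (0.696 to 0.753), 0.610 for IDEFIX (0.578 to 0.645) and 0.449 for HMSBEAGLE (0.308 to 0.657). Of the 28 pairs of families, 26 differed in loss by their 95% intervals, and 25 did with intervals widened for 28 comparisons. The pairs with an interval that includes 1 were ZAM with QUASIMODO (0.995, 0.953 to 1.04) and IDEFIX with HMSBEAGLE (1.38, 0.940 to 2.02).

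**Figure D3:**
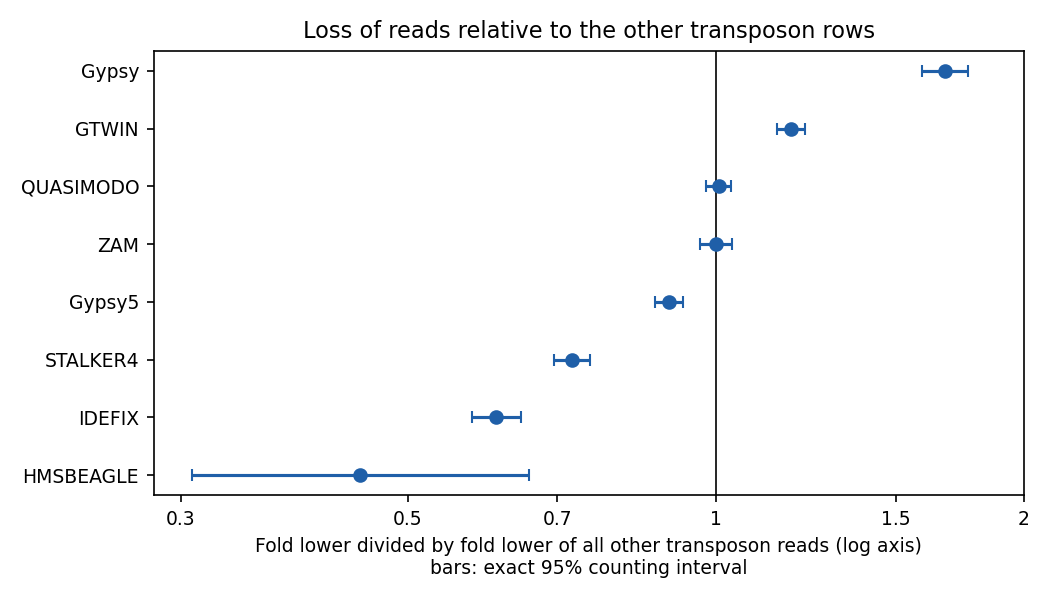
Fold lower of each family divided by the fold lower of all other transposon reads (log axis), with exact 95% counting intervals; 1 marks an equal loss. Gypsy (1.68) and GTWIN (1.19) lie above 1, QUASIMODO and ZAM on it, and the other 4 below it.

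Other families of the gypsy group lost slightly more as a sum, which leans on its most abundant rows, though not by the median of their rows. Of 53 names on a list of such families, 42 were in the table and 40 averaged 1 RPM or more. Of these 40, 33 were called lower, none higher and 7 neither. Their log2 folds had a median of -1.35, against -1.40 for the 8 families. Their summed RPM was 11958 and 3797, 3.15-fold lower (3.08 to 3.22). The loss of the 8 families was 0.871 times that sum's loss (0.850 to 0.894). The 3 rows with most Yb WT reads in this sum were Gypsy2, Gypsy3 and Gypsy6 (2195, 1858 and 1187 RPM). They were 3.98-fold, 4.72-fold and 4.36-fold lower. ACCORD, which had the most reads among rows with another name (929 RPM), was 2.05-fold lower. The sum was not computed without the numbered Gypsy rows, so its greater loss is not shown for the rest of the list.

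Gypsy and Gypsy5 stood at different places among the numbered Gypsy rows. Of the 13 other numbered rows, 12 were called lower. The loss was greater than that of Gypsy5 beyond counting error in 6 of the 13 and smaller in 0, with an interval that includes 1 in 7. It was smaller than that of Gypsy beyond counting error in 6 and greater in 0, with an interval that includes 1 in 7. Gypsy2 had 2195 RPM with Yb WT and 551 RPM with Yb ΔHel-C, 3.98-fold lower (3.76 to 4.21). Gypsy3 had 1858 and 393 RPM, 4.72-fold lower (4.43 to 5.04). Gypsy6 had 1187 and 272 RPM, 4.36-fold lower (4.03 to 4.72). The loss of Gypsy was 0.956 times that of Gypsy3 (0.880 to 1.04) and 1.04 times that of Gypsy6 (0.942 to 1.14), both within counting error. That of Gypsy5 was 0.533 times that of Gypsy3 (0.496 to 0.573) and 0.979 times that of Gypsy4 (0.906 to 1.06).

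Rows that share a name with STALKER4 or QUASIMODO had few reads. Stalker2 had 236 reads with Yb WT and 96 with Yb ΔHel-C, 2.33-fold lower (1.83 to 2.99), and Stalker3 had 21 and 17 reads. The loss of STALKER4 was 0.876 times that of Stalker2 (0.682 to 1.12). QUASIMODO2 had 45 and 15 reads, and the loss of QUASIMODO was 0.976 times its loss (0.505 to 1.79). TIRANT, another gypsy-group retrovirus, had 135 and 35 reads, 3.66-fold lower (2.51 to 5.47). A shared name does not show how alike the sequences are, and how the authors placed reads that match several families is not stated in the sources used here.

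Rows matched by name to a list of families known mainly from the germline lost less. Of 23 names on the list, 15 matched a row, and 5 of these rows were called lower, 9 neither and 1 higher. The higher one was the telomeric element TART-A, which is named here after its value was seen. Some rows were left out because their names are written differently from those listed. Among them DMRT1B (5.02-fold lower), DMRT1A (4.74-fold) and DM1731 (2.21-fold) were all called lower. The contrast therefore covers the 15 matched rows only. BURDOCK, which is among them, is also on the list of other gypsy-group families. The 15 rows had a median log2 fold of -0.90, and their summed RPM was 1162 and 720, 1.61-fold lower (1.53 to 1.71). The loss of the 8 families was 1.70 times that of this sum (1.61 to 1.80). The telomeric element TART_B1 alone held 512 RPM of the sum with Yb WT. The sum was not computed without telomeric elements. Among the 15, TART_B1 (512 and 317 RPM) and ROO (312 and 166 RPM) had the most reads with Yb WT. DOC (69.4 and 32.8 RPM, 2.11-fold lower) and I (69.4 and 42.4 RPM, 1.63-fold lower) followed with equal reads there. IDEFIX, at 1.71-fold lower, lay between TART_B1 at 1.61-fold (1.48 to 1.75) and ROO at 1.88-fold (1.68 to 2.11).

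Other abundant transposon rows were also lower on the authors' totals. Of the 26 other transposon rows that averaged 100 RPM or more, 18 were called lower and 8 neither. Their log2 folds had a median of -1.31. The row nearest in log2 fold was MDG3, an LTR element, for both QUASIMODO and ZAM (2.93-fold lower, 2.68 to 3.20). It was the LINE FW2 for GTWIN (3.26-fold), the LINE DMCR1A for Gypsy5 (2.51-fold), the LINE IVK for Gypsy (4.57-fold) and the LTR element ACCORD for STALKER4 (2.05-fold). It was the DNA transposon S for IDEFIX (1.75-fold) and the DNA transposon BARI for HMSBEAGLE (1.18-fold). The likeness is a difference in log2 fold over 2 columns. Each row was picked from the 26 for that closeness, so a near match is no separate result. Rows of LTR, LINE and DNA elements all appear among those picked.

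**Figure D4:**
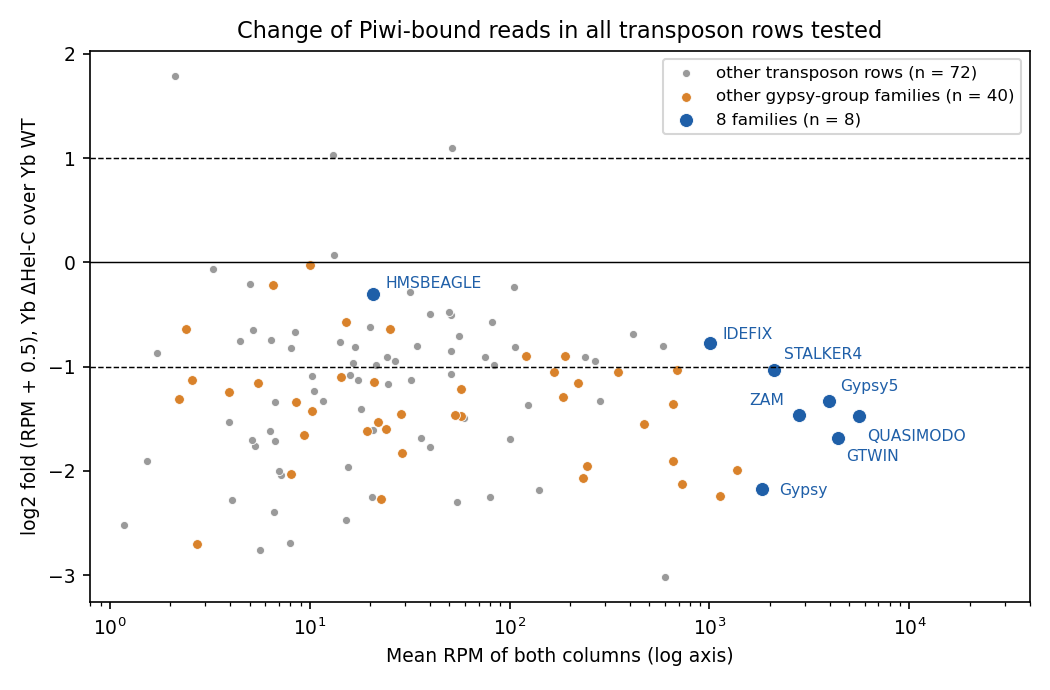
Log2 fold on RPM + 0.5 against mean RPM (log axis) for the 120 transposon rows that averaged 1 RPM or more, on the authors' totals; dashed lines mark 2-fold. The 8 families span from -2.17 (Gypsy) to -0.30 (HMSBEAGLE), within the range of the other gypsy-group families, and values shift up by up to 1.47 when the columns are scaled to transposon reads, which turns 4 of the 8 positive.

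The lower level of all 8 families on the authors' totals was also seen under 4 other scalings, while scaling to transposon reads turned 4 of the 8. The log2 fold of IDEFIX was -0.78 on the authors' totals, -1.62 with edgeR's TMM factors and -1.67 with RLE factors, and that of HMSBEAGLE was -0.30, -1.13 and -1.17. All 8 families were called lower with TMM, where 93.3% of transposon rows were, and with RLE, where 95% were. These factors moved the median log2 fold of all 7697 rows by -0.79 and -0.84, from 0.88. Scaled to transposon reads, none of the 8 and 6.67% of transposon rows were called lower. Gypsy5, STALKER4, IDEFIX and HMSBEAGLE were then higher with Yb ΔHel-C, with log2 folds of 0.13, 0.44, 0.69 and 1.13. The 8 families themselves hold 63.8% and 64.2% of that base. It therefore shows a family's change relative to transposon reads and cannot show a loss that these reads share. Gene rows held 64.2% of reads with Yb WT and 78.9% with Yb ΔHel-C, and the part of this shift in the values above was not tested.

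**Figure D5:**
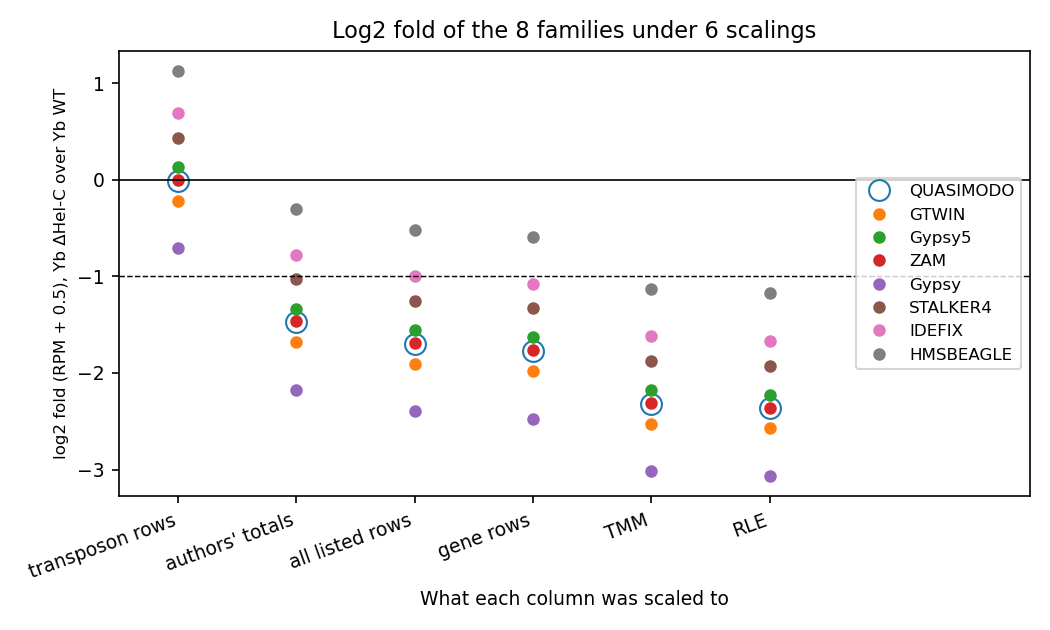
Log2 fold on RPM + 0.5 of each family with the columns scaled to transposon rows, the authors' totals, all listed rows, gene rows, TMM factors and RLE factors; the dashed line marks 2-fold lower and QUASIMODO is drawn as an open circle around ZAM. The order of the families is the same throughout, which follows from each scaling applying 1 factor to a whole column. With the transposon rows as the base, 4 families lie above 0.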

How the data were processed

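Piwi-bound small RNAs of 4 libraries, 2 per group, were analysed from 1 table with 1 column per group. The authors' deposited values are taken as RPM from their range and steps, because no unit stands in the header. Per the submitters' processing notes, the tools were STAR and HTSeq and the builds BDGP6 or dm6, with no role for either. Whether a column is 1 library or a pool, the handling of reads that match several rows, the strand, and where the transposon sequences came from, are not stated in the sources used here. In each column 100% of values above 0 were whole multiples of 1 step (tolerance 0.01 read), which gave read counts and totals of 2955141 and 2803305 reads; the listed rows held 69.2% and 80.7% of them. A count of 3 reads corresponds to 1.02 and 1.07 RPM. 0 columns belonged to another series.

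Ratios of RPM have exact conditional (Clopper-Pearson) 95% intervals, and ratios of ratios have Fisher's exact conditional intervals (R 4.3.3). The intervals cover counting error only, because each group has 1 value. Reads carry no molecular identifiers, so copies of 1 molecule cannot be told apart and the intervals may be too narrow. With 1 value per group, the edgeR and limma tests planned for replicates were not run. A row was called by fold alone, on log2 of RPM + 0.5, which understates changes of low rows, for rows averaging 1 RPM or more; all 8 families passed that filter. An exact binomial test on the reads, adjusted over all 7697 rows at 0.05, compares the columns and not the conditions. It was an alternative and called 680 rows lower (8.83%) and 4337 rows higher (56.3%). Scaling factors were from edgeR 4.0.16. Interval and fold code was tested on simulated data.

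The families, lists and rules were chosen with earlier results of these data known. Besides the 8 families, rows were named by rule: the 3 other transposons with most reads in Yb WT, the row of at least 100 RPM nearest in log2 fold to each family, the 3 with most reads on each list, the rows sharing a name, and TIRANT. QUASIMODO2, TART-A, I (tied with DOC), DMRT1B, DMRT1A, DM1731, CIRCE and BURDOCK were named after their values were seen.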

Additional observations from a re-analysis of the deposited data

How the results depend on the processing

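No paired analysis was possible because the columns carry no replicate number, and no replicate could be left out for the same reason. The summed level of the 8 families, 2.74-fold lower, was 4.92-fold lower with TMM factors, 5.10-fold with RLE factors, 3.20-fold when scaled to all listed rows, 3.37-fold when scaled to gene rows and 0.993-fold when scaled to transposon rows. Scaled to transposon rows, none (0) of the 8 families and 8 of 120 transposon rows were called lower. The log2 folds of Gypsy5 (0.13), STALKER4 (0.44), IDEFIX (0.69) and HMSBEAGLE (1.13) turned positive. This base takes out the loss that the transposon rows share, and the 8 families themselves make up most of the base. With 3-fold in place of 2-fold, 2 of the 8 families (GTWIN and Gypsy) and 38 of 120 transposon rows were called lower. With 1.5-fold, 7 and 104 were; with the exact test on reads and no minimum fold, 7 and 97 (80.8%). Pseudocounts of 0.1 and 1 RPM and the 3 other filters on low values left 6 of 8 called. Without QUASIMODO, the share of transposon reads was 56.6% with Yb WT and 57.2% with Yb ΔHel-C. Leaving out 1 family, an alternative chosen after seeing the data, moved the summed fold beyond its counting interval for GTWIN (2.64), Gypsy (2.64), Gypsy5 (2.80), IDEFIX (2.82) and STALKER4 (2.84), and within it for QUASIMODO, ZAM and HMSBEAGLE. Among the 8, depth limits HMSBEAGLE (68 and 52 reads) and the call of STALKER4, whose interval (1.97 to 2.12) spans 2-fold. The value of HMSBEAGLE also depends on scaling. Its log2 fold was -0.30 on the authors' totals, -1.13 with TMM factors and 1.13 when scaled to transposon rows.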
